A study of Rattus norvegicus with 6 samples.

Results

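The genes described here encode albumin and the other main carrier proteins and inhibitors that the liver releases into plasma: Alb, Gc, Ttr, Rbp4, Ambp, Ahsg, Fetub, Hrg, Serpina1 and Serpina6. They were chosen by gene symbol, and each of the 10 symbols was found on 1 locus among 33022 loci in the deposited table, of which 32158 carried a symbol. All 10 were among the 10201 loci that were compared, for which the estimate succeeded, a symbol was given and FPKM averaged 1 or more across the libraries. FPKM is the number of fragments per kilobase of transcript, scaled by a factor for each library, so levels of different genes within a library can be set side by side.

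Hepatocytes make most plasma proteins and translate them on ribosomes bound to the endoplasmic reticulum, from which the proteins pass into the secretory pathway. Albumin keeps water within the vessels by its osmotic pressure and carries fatty acids, bilirubin and many drugs, and the other carriers hold thyroid hormone, retinol, vitamin D or corticosteroids. Several of these proteins are known as negative acute phase reactants, and their plasma levels are also used as a sign of how well an animal or a patient is fed.

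The study asked how a Western diet alters both mRNA abundance and translation in rat liver early in the development of a fatty liver. Male obesity-prone Sprague Dawley rats ate freely for 2 weeks from the diet TD 08485, the control diet (CD), or from TD 88137, a Western diet (WD), and all groups shared an overnight fast followed by a brief refeeding with their own diet. The left lobe was sampled, and homogenates were separated on sucrose gradients into a light fraction, with mRNAs carrying 3 or fewer ribosomes, and a heavy fraction, with mRNAs carrying 4 or more. Total RNA and both fractions were each sequenced as 1 library per diet, made from the pooled RNA of 3 rats with removal of ribosomal RNA at library preparation.

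With 1 library per group, no value below has a replicate, no test between the diets was possible, and each ratio compares libraries rather than diets. The spread between the 3 rats of a pool was not measured. For 7 of the 10 genes the number of fragments behind each value could be inferred from the FPKM values, and it lay between 213 and 15978. Ratios of these genes are given with a 95% interval that covers counting error only, and since the reads carry no molecular identifiers even that error may be understated. No such numbers were found for Alb, Ahsg and Hrg. The bounds that Cufflinks gave were mostly far wider: the lower bound was 0 in 50 of the 60 values. Ratios of at least 1.5 or at most 0.75 are counted below. The study set these limits for ribosome density in CD relative to WD, whereas here they are applied to WD over CD and also to abundance and to heavy over light, and calls that differ in the study's direction are given beside the counts. The log2 differences were taken after adding 0.1 FPKM to each value.

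The 6 libraries differed in ways that bear on the values. Depth was inferred as the inverse of the FPKM worth of 1 fragment, so it includes the scaling of the library and is not a number of reads. Relative to the CD heavy fraction it was 1.57 and 1.503 in total RNA of CD and WD, 1.07 and 2.34 in the light fractions, and 1.02 in the WD heavy fraction. The FPKM of all loci with a symbol summed to 867734 in the WD light fraction and to between 617369 and 700724 in the other libraries. All 7 hepatocyte markers examined were found, with summed levels of 2331 to 3602 FPKM. Krt7, a marker of bile duct cells, and the fat cell genes Adipoq, Plin1 and Lep were listed at 0 in every library. The other bile duct markers found summed to 0.694 FPKM in CD and 4.35 FPKM in WD total RNA and stayed below that elsewhere, and Cfd, the other gene of the fat cell list, ranged from 2.35 FPKM in CD total RNA to 32.4 FPKM in the WD heavy fraction, with 11.0 FPKM in WD total RNA. The 5 blood cell markers found summed to 543 FPKM in the WD light fraction, 105 FPKM in the CD light fraction and 26.6 to 55.8 FPKM in the other 4 libraries. The WD light library thus stood apart in inferred depth, in FPKM summed over loci with a symbol and in blood cell markers. Over all loci, those without a symbol included, it did not stand apart. That sum was 2.81e+07 in the WD light fraction and 4.53e+07 in the CD light fraction. In the other libraries it lay between 1.92e+07 and 3.23e+07. In bulk tissue, fewer cells of a type and less RNA per cell cannot be told apart.

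The 10 mRNAs were among the most abundant of the liver. In total RNA, 3 of them were among the 10 highest of 28006 symbols and 9 among the 100 highest, in both diets. Alb had the highest level of the 10 in each library, 3.26- to 7.25-fold above the second, and was at rank 2 of all symbols in total RNA, 1 in both heavy fractions, 3 in the CD light fraction and 6 in the WD light fraction. Its FPKM in total RNA was 47108 in CD and 43677 in WD.

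**Figure D1:**
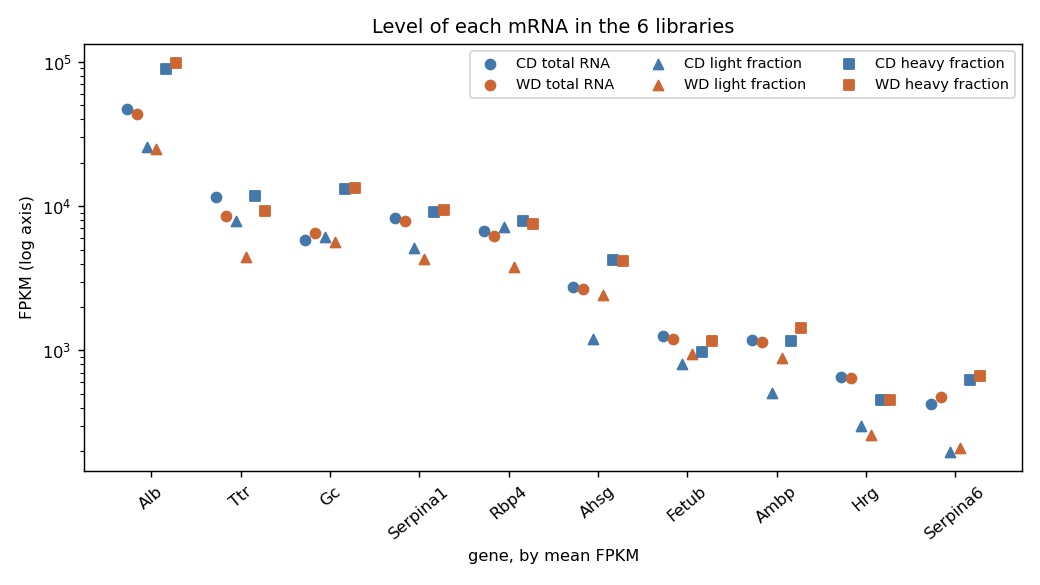
FPKM of each of the 10 mRNAs (logarithmic axis) in the 6 libraries, 1 point per library, with genes ordered by their mean. Circles are total RNA, triangles the light fraction and squares the heavy fraction. The points span 199 FPKM for Serpina6 in the CD light fraction to 97448 FPKM for Alb in the WD heavy fraction, and the lowest point of each gene is a light fraction.

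Behind Alb, the order in CD total RNA was Ttr, Serpina1, Rbp4, Gc, Ahsg, Fetub, Ambp, Hrg and Serpina6. In WD total RNA the order was the same apart from Gc, which stood above Rbp4. Alb was 111-fold above the last gene, Serpina6, in CD total RNA and 91.6-fold above it in WD total RNA. In both heavy fractions Gc moved up to second place and Hrg took the last place in the order, below Serpina6. Cufflinks' bounds of neighbours in the order overlapped in 9 of 9 pairs in the total RNA and light libraries and in 8 of 9 pairs in the heavy libraries. Most adjacent places in the order are therefore not resolved. The pair apart in the heavy libraries was Alb and Gc, and the bounds of Alb were narrow in these libraries only.

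Together the 10 mRNAs held 13.0% of the FPKM of loci with a symbol in CD total RNA and 12.8% in WD total RNA. Their share was 20.0% and 20.7% in the heavy fractions of CD and WD, and 8.07% and 5.51% in the light fractions. The heavy fractions thus held the highest shares and the light fractions the lowest in both diets. These are not shares of whole libraries, because the 864 loci without a symbol held most of the FPKM. In CD total RNA, loci with a symbol summed to 659742 FPKM and all loci to 2.86e+07 FPKM. The 10 genes summed to 54846 FPKM in the CD and 47852 FPKM in the WD light fraction. All loci there summed to 4.53e+07 and 2.81e+07 FPKM, so the order of the diets in that fraction depends on the loci counted. Alb accounted for 55.1% and 55.3% of the 10 in total RNA and for 64.2% and 67.2% in the heavy fractions of CD and WD. Of the FPKM of loci with a symbol, the 9 other genes without Alb held 5.83% and 5.72% in total RNA. They held 4.30% and 2.64% in the light fractions and 7.16% and 6.79% in the heavy fractions, and so followed the same order of fractions.

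**Figure D2:**
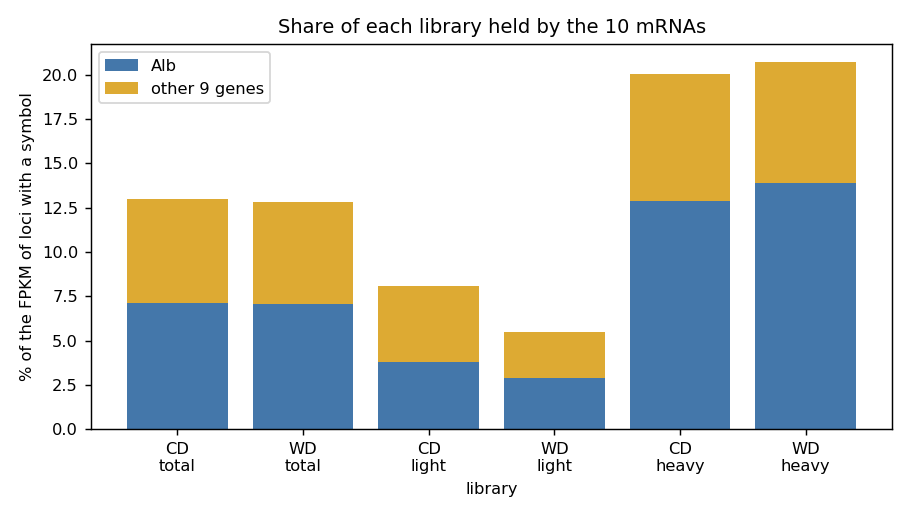
Percent of the FPKM of all loci with a symbol held by Alb (lower part of each bar) and by the other 9 genes (upper part) in the 6 libraries. The whole bars reach 13.0% and 12.8% in total RNA, 8.07% and 5.51% in the light fractions and 20.0% and 20.7% in the heavy fractions, for CD and WD.

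Coordinates of the deposited loci follow the rat build Rnor_6.0, and 7 of the 10 genes shared a chromosome with another. Alb (chr14:19176276-19191863) and Gc (chr14:20266890-20302581) belong to the albumin family and lay 1075 kb apart. The cystatin family genes stood in a row on chromosome 11, with Hrg (chr11:81621282-81639952) 8.93 kb from Fetub (chr11:81648884-81660395) and Fetub 47.4 kb from Ahsg (chr11:81707803-81735592). Serpina6 (chr6:127523905-127534247) and Serpina1 (chr6:127610242-127632265), both of the serpin family, were 76.0 kb apart on chromosome 6. Ttr (chr18:15532962-15540177), Rbp4 (chr1:256806471-256813711) and Ambp (chr5:78975677-78985990) each lay alone. Genes on the same chromosome did not share a level: in CD total RNA, Serpina1 was 19.4-fold above Serpina6, Alb 8.13-fold above Gc and Ahsg 2.17-fold above Fetub.

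Promoter windows of 300 bases, from 250 before to 50 after the start site, were available from RefSeq (build GRCr8) for 7 of the 10 genes, not including Fetub, Hrg and Serpina6. They were searched on both strands for 4 motifs. The letters GTTAATNAT, a core of the site bound by the liver factor HNF1, occurred in 0.747% of 33469 promoters of the table and in 2 of these 7, Alb and Gc. The match GTTAATGAT began at position -82 from the start site of Alb and at position -194 from that of Gc. Both sequences are shown because the albumin family genes among the 10 were the pair that held this match. Each line gives the 250 bases before the start site in the direction of transcription, with the match in capitals. For Alb the bases are chr14:17906980-17907229 on the minus strand and for Gc chr14:18916005-18916254 on the plus strand, both in GRCr8.
Alb: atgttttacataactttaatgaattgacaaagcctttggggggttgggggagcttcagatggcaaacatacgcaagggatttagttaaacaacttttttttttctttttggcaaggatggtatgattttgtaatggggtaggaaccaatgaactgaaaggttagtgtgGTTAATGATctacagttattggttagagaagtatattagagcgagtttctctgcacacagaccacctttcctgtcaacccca
Gc: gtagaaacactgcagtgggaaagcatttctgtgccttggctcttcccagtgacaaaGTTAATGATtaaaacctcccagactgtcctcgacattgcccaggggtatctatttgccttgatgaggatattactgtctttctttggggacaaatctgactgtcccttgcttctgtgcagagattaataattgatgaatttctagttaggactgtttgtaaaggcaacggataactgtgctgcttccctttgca

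The other motifs were more common in the table. CCAAT was found in 3 of the 7 promoters, those of Alb, Ttr and Ambp, against 37.5% of all promoters, and in Alb it occurred on both sides of the GTTAATGAT match. TATAAA was found in 1 of the 7, Rbp4, against 14.2% of all, and TGTTTAC, the core of a forkhead site, in 0 of 7 against 3.78%. These matches are letters in a window, and binding was not measured.

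In total RNA the levels of the 10 mRNAs differed little between the diets. Between WD and CD, 0 of the 10 reached a ratio of 1.5 and 1, Ttr, had a ratio of at most 0.75, where 17.7% and 22.7% of the loci compared passed these ratios. Among the 647 abundant loci, those averaging 100 FPKM or more as all 10 genes did, the shares were 4.64% and 12.7%. The median log2 difference of the 10 was -0.049, with 2 genes higher and 8 lower in WD. After the libraries had been rescaled to 1 common sum over loci with a symbol, the median was 0.047, with 7 higher and 3 lower, and 0 genes passed either ratio, so the direction of the set depended on the scaling.

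The carriers of thyroid hormone and retinol were lower in WD total RNA as deposited. Ttr encodes transthyretin, which binds thyroxine and also the complex of retinol with its binding protein. Its level was 11472 FPKM in CD and 8558 FPKM in WD, a ratio of 0.746 (0.718 to 0.775), just inside the threshold, which it would not pass with the limits set on CD over WD. Over the 11 settings run, the reported one included, this ratio lay between 0.735 and 0.797. Of these settings, in effect only those that change the scaling could move a ratio of these genes. Rbp4, which carries retinol from the liver, was at 6713 FPKM in CD and 6157 FPKM in WD, a ratio of 0.917 (0.883 to 0.953). Its log2 difference was -0.125 as deposited and -0.029 after rescaling to 1 common sum, so most of it depended on the scaling. Rbp4 mRNA amounted to 0.585 of Ttr mRNA in CD and to 0.720 in WD, a quotient that no scaling of the libraries changes.

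The 2 genes of the albumin family among the 10 lay on opposite sides of 1. The Alb ratio in total RNA was 0.927. Gc encodes the vitamin D-binding protein, which also binds actin released from damaged cells. It was at 5794 FPKM in CD and 6558 FPKM in WD, a ratio of 1.13 (1.10 to 1.16), the highest of the 10. The quotient of Alb to Gc was accordingly 8.13 in CD and 6.66 in WD.

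The cystatin family genes differed by a few percent. Ahsg encodes fetuin-A, which binds calcium phosphate and hinders its deposition in soft tissue, and was at 2732 FPKM in CD and 2655 FPKM in WD (ratio 0.972). Fetub, which encodes the protease inhibitor fetuin-B, was at 1257 and 1204 FPKM, a ratio of 0.958 (0.897 to 1.02). Hrg encodes histidine-rich glycoprotein, a binder of heparin, heme and zinc, and was at 652 and 648 FPKM (ratio 0.995). Under the rescaling these 3 genes, Ambp and Serpina1 changed to the other side of 1.

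Ambp encodes a precursor that is cleaved into alpha-1-microglobulin and the protease inhibitor bikunin. It was at 1173 FPKM in CD and 1144 FPKM in WD total RNA, a ratio of 0.975 (0.903 to 1.05). Serpina1, whose product inhibits neutrophil elastase, was at 8231 and 7917 FPKM, a ratio of 0.962 (0.936 to 0.988). Serpina6, which encodes the corticosteroid-binding globulin, was the least abundant at 424 and 477 FPKM, with a ratio of 1.13 (1.01 to 1.25). The intervals of Ttr, Rbp4, Gc, Serpina1 and Serpina6 left out 1, while those of Fetub and Ambp contained it. The bounds of Cufflinks overlapped between the diets for all 10 genes in total RNA.

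**Figure D3:**
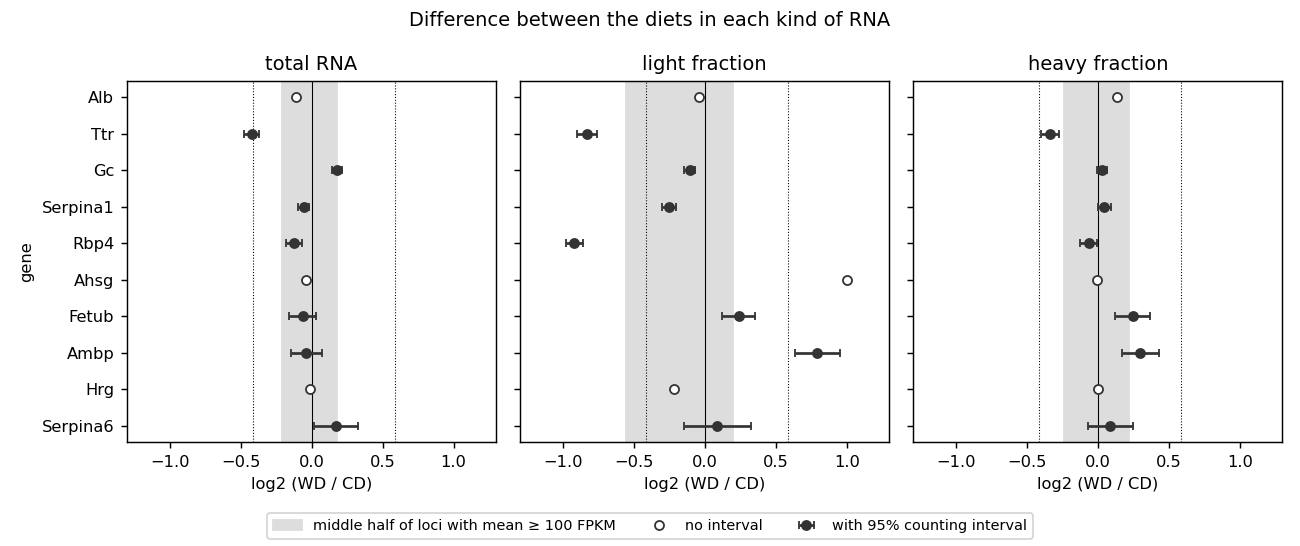
log2 of the WD to CD ratio of each mRNA in total RNA, the light fraction and the heavy fraction. Filled points carry a 95% counting interval, open points have none, the dotted lines stand at ratios of 0.75 and 1.5, and the grey band spans the first to the third quartile of the 647 abundant loci. In the light fraction Ahsg and Ambp lie above the upper line and Ttr and Rbp4 below the lower one, while Ttr alone lies past a line in total RNA and no gene does in the heavy fraction.

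The light fraction showed the widest differences between the diets. Of the 10 genes, 2 had a ratio of at least 1.5, Ahsg and Ambp, and 2 a ratio of at most 0.75, Ttr and Rbp4. Of the loci compared, 25.9% and 26.8% passed these ratios, and of the abundant loci 14.2% and 32.8%, so the counts of 2 in 10 are near the background. The median log2 difference was -0.07, with 4 genes higher and 6 lower. Rescaled to the same sum, 1 gene passed the upper and 5 passed the lower ratio, with 2 higher and 8 lower, where 17.4% and 44.1% of all loci passed. That rescaling moved the median of all loci by -0.31 in this comparison, by 0.26 for heavy over light in WD and by 0.30 for the change of ribosome density.

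Rbp4 and Ttr were lower in the WD light fraction. Rbp4 was at 7129.6 FPKM in the CD and 3772 FPKM in the WD light fraction, a ratio of 0.529 (0.507 to 0.552). Ttr was at 7852 and 4421 FPKM there, a ratio of 0.563 (0.537 to 0.591). Both genes passed the lower ratio under these 11 settings, with ranges of 0.403 to 0.529 for Rbp4 and 0.429 to 0.563 for Ttr. The quotient of Rbp4 to Ttr was 0.908 in CD and 0.853 in WD, so that the pair differed less from each other than between the diets.

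Ahsg and Ambp were higher in the WD light fraction. Ahsg was at 1199.6 FPKM in CD and 2402 FPKM in WD, a ratio of 2.00, which lay between 1.53 and 2.00 over the 11 settings. Ambp was at 509 and 880.3 FPKM, a ratio of 1.73 (1.55 to 1.93). Under the rescalings the Ambp ratio was as low as 1.32 and no longer passed.

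The remaining 6 genes stayed within both ratios in the light fraction as deposited, but after rescaling to 1 common sum Gc, Hrg and Serpina1 passed the lower ratio, at log2 differences of -0.46, -0.57 and -0.60. Alb was at 25611 FPKM in CD and 24966 FPKM in WD (ratio 0.975), and Gc at 6092 and 5662 FPKM, a ratio of 0.930 (0.904 to 0.956). Serpina1 was at 5151 and 4329.7 FPKM, a ratio of 0.841 (0.811 to 0.871), and Hrg at 299 and 257 FPKM (ratio 0.860). Fetub had 805 and 949.5 FPKM, a ratio of 1.18 (1.09 to 1.28), and Serpina6 had 199 and 211 FPKM, a ratio of 1.06 (0.903 to 1.25). These last 2 were on the other side of 1 after rescaling, while the Fetub neighbours Ahsg and Hrg kept theirs. The summed blood cell markers were 105 FPKM in the CD and 543 FPKM in the WD light fraction, and the part of this difference in the light values was not tested.

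In the heavy fraction 0 of the 10 genes passed either ratio, against 21.7% of the loci compared for the upper and 25.8% for the lower, and 9.12% and 12.2% of the abundant loci. The median log2 difference was 0.04. Alb was at 88634 FPKM in CD and 97448 FPKM in WD, a ratio of 1.10. This was the single diet comparison of 30 in which the bounds of Cufflinks did not overlap. The bounds of Alb were narrow here, 88185 to 89084 FPKM in CD and 96976 to 97920 FPKM in WD. In total RNA and the light fractions its lower bound was 0, so the missing overlap does not mark a larger difference. Ttr was again the lowest, at 11735 and 9293 FPKM, a ratio of 0.792 (0.757 to 0.828), so its ratio was below 1 in total RNA and in both fractions.

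Rbp4, in contrast to its light fraction value, was at 7901 FPKM in CD and 7552 FPKM in WD, a ratio of 0.956 (0.916 to 0.998). Ahsg was at 4213 and 4189.5 FPKM, a ratio of 0.994. The values of these genes that were far apart in the light fraction were thus close in the heavy fraction. Ambp had the highest ratio, 1.23 (1.12 to 1.35), from 1163 and 1431 FPKM, and Fetub followed with 1.19 (1.09 to 1.29), from 982 and 1164 FPKM. Gc was at 13170.1 and 13445 FPKM with a ratio of 1.02 (0.998 to 1.04), and Serpina1 at 9111 and 9413 FPKM with a ratio of 1.03 (1.00 to 1.07). Hrg was at 451 FPKM in both, and Serpina6 at 626 and 666 FPKM with a ratio of 1.06 (0.953 to 1.19). The intervals of Gc and Serpina6 contained 1.

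Ribosome density was taken, as in the study, as the level in the heavy fraction over that in the light fraction. Each of the 2 libraries carries its own scale factor, so this ratio is relative and is not a ratio of molecules. Over all loci compared the median log2 ratio was 0.012 in CD and 0 in WD. All 10 mRNAs had a ratio above 1 in both diets. In CD, 7 of the 10 had a ratio of at least 1.5 and 0 a ratio of at most 0.75, where 32.9% and 36.6% of the loci compared passed these ratios. In WD, 9 and 0 passed, where 31.4% and 38.5% of the loci did. Among the abundant loci 45.1% passed the upper and 24% the lower ratio in CD, and 52.6% and 23.2% in WD. The median log2 ratio of the 10 was 0.97 in CD and 1.04 in WD, and that of the abundant loci 0.47 and 0.70.

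Ahsg, Alb and Serpina6 had the highest density in CD, with ratios of 3.51, 3.46 and 3.15 (2.69 to 3.70). In WD the highest were Alb at 3.90 and Serpina6 at 3.16 (2.81 to 3.55). Alb mRNA was 1.88 times as high in the heavy fraction as in total RNA in CD and 2.23 times in WD, and in the light fraction it was 0.544 and 0.572 of total RNA. Gc was the other gene with a high heavy to total quotient, 2.27 in CD and 2.05 in WD, but it was also at 1.05 and 0.863 of total RNA in the light fraction. Its heavy to light ratio was 2.16 (2.10 to 2.22) in CD and 2.37 (2.32 to 2.43) in WD.

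The lowest densities belonged to Rbp4 in CD, at 1.11 (1.06 to 1.16), and to Fetub, at 1.22 (1.11 to 1.34) in CD and 1.23 (1.14 to 1.32) in WD. Among the 3 neighbours on chromosome 11, Fetub and Hrg were lower in the heavy fraction than in total RNA in both diets, Fetub at 0.781 and 0.967 of total RNA and Hrg at 0.691 and 0.695, while Ahsg was at 1.54 and 1.58. Hrg in CD, at 1.51, stood just above the upper ratio, and Ttr in CD, at 1.49 (1.43 to 1.57), just below it. Serpina1 had ratios of 1.77 (1.71 to 1.83) in CD and 2.17 (2.11 to 2.24) in WD. The bounds of Cufflinks for the heavy and the light fraction overlapped in all 20 of these comparisons.

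**Figure D4:**
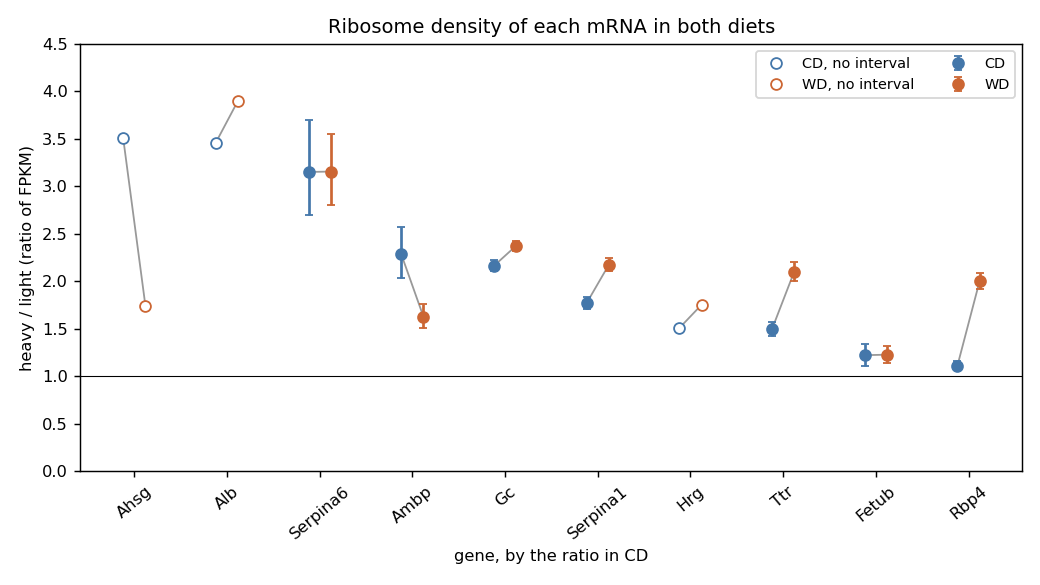
Heavy to light ratio of FPKM for each mRNA in CD (blue) and WD (orange), with genes ordered by the ratio in CD. Filled points have 95% counting intervals, open points have none, and lines join the diets. All points lie above 1, Ahsg goes from 3.51 in CD to 1.74 in WD, and Rbp4 from 1.11 to 2.00.

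The change of ribosome density is the heavy to light ratio in WD over that in CD. It uses the same 4 libraries as the comparisons of the fractions, so it adds no independent value. Of the 10 genes, 1 had a change of at least 1.5, Rbp4, and 2 a change of at most 0.75, Ahsg and Ambp, where 27.7% and 36.1% of the loci compared passed these ratios. Among the abundant loci 24.1% and 18.2% passed. Both counts lay below the shares of all loci, while the lower one was close to that of the abundant loci. With the limits set on CD over WD instead, the genes past them were Rbp4 and Ttr (0.711) with a higher and Ahsg with a lower density in WD, where 32.9% and 30.9% of the loci passed, and Ambp, at 1.41, did not pass. The median log2 change was 0.15, and 8 genes were above and 2 below 0. After rescaling to the same sum the median was 0.48, beside 0.28 for all loci, and 3 genes passed the upper and 1 the lower ratio, as did 37.9% and 27.2% of all loci.

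Rbp4 had the largest change upwards, 1.81 (1.70 to 1.92), from a density of 1.11 in CD to 2.00 (1.92 to 2.09) in WD. Ttr followed with 1.41 (1.32 to 1.502), from 1.49 to 2.10 (2.01 to 2.202). Both partners of the retinol transport complex thus moved from the lower end of the 10 towards the middle. In these genes the heavy fraction relative to total RNA was nearly the same in both diets, at 1.18 and 1.23 for Rbp4 and at 1.02 and 1.09 for Ttr. The light fraction relative to total RNA was 1.06 in CD and 0.613 in WD for Rbp4 and 0.684 and 0.517 for Ttr, so the difference lay mostly in the light libraries.

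Ahsg had the largest change downwards, 0.497, from 3.51 in CD to 1.74 in WD. Ambp was at 0.711 (0.616 to 0.820), from 2.29 (2.03 to 2.58) to 1.63 (1.503 to 1.76). For Ahsg, too, the heavy to total quotient was close between the diets, at 1.54 and 1.58, whereas light over total was 0.439 in CD and 0.905 in WD. For Ambp, light over total was 0.434 in CD and 0.770 in WD, and heavy over total 0.991 and 1.25.

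The other 6 genes had changes nearer to 1. Serpina1 was at 1.23 (1.17 to 1.29), Hrg at 1.16, Alb at 1.13 and Gc at 1.10 (1.06 to 1.14). Fetub was at 1.00 (0.892 to 1.13) and Serpina6 at 1.00 (0.820 to 1.22). Of the 7 counting intervals, 4 lay above 1 and 1 below it.

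With density taken as heavy over total RNA, 0 of the 10 genes passed either ratio, where 26.7% and 31.0% of all loci passed the upper and the lower. The log2 change by this measure was 0.06 for Rbp4, 0.09 for Ttr, 0.03 for Ahsg and 0.34 for Ambp, so that Ahsg and Ambp were on the other side of 0. Gc was at -0.15 and Serpina6 at -0.08, Alb at 0.25 and Fetub at 0.31. The calls of Rbp4, Ahsg and Ambp therefore rested on the light fractions. The WD light library had 2.34 times the inferred depth of the CD heavy library and 543 FPKM of blood cell markers. The part of these differences in the calls was not tested.

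**Figure D5:**
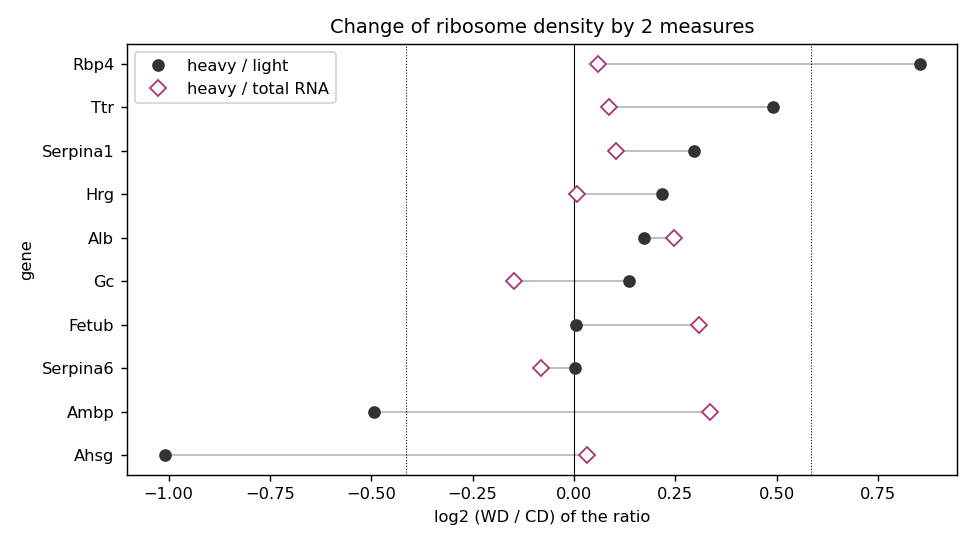
log2 of the WD to CD ratio of ribosome density for each mRNA, with density as heavy over light (filled) or heavy over total RNA (open), ordered by the first. Dotted lines stand at ratios of 0.75 and 1.5. Rbp4 (0.85) lies past the upper line and Ahsg (-1.01) and Ambp (-0.49) past the lower line by heavy over light, and no open point lies past a line.

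The spread among the 10 genes can be read without regard to library scaling, since a scale factor moves all of them alike. The highest and the lowest WD to CD ratio were 1.52-fold apart in total RNA, from Ttr to Gc, and 1.55-fold apart in the heavy fraction, from Ttr to Ambp. In the light fraction they were 3.78-fold apart, from Rbp4 to Ahsg, and in the change of ribosome density 3.64-fold, from Ahsg to Rbp4. The interquartile range of the log2 differences was 0.08 in total RNA, 0.44 in the light and 0.13 in the heavy fraction for the 10 genes. For the abundant loci it was 0.39, 0.76 and 0.46. For the 48 other genes for plasma proteins described below it was 0.19, 0.86 and 0.27. A range below that of the abundant loci in total RNA and the heavy fraction was thus not particular to the 10.

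Other genes for plasma proteins made in the liver were also mostly higher in the heavy than in the light fraction. Of 60 such genes listed with earlier results of these data known, 53 were found and 48 compared. In total RNA 1 passed the upper and 2 the lower ratio, against 17.7% and 22.7% of all loci compared. In the heavy fraction 1 and 4 passed, against 21.7% and 25.8% of all loci. In the light fraction 8 and 13 passed, which is 16.7% and 27.1% of the 48. There 25.9% and 26.8% of all loci and 14.2% and 32.8% of the abundant loci passed, so the light counts are near the background. For heavy over light, 33 and 7 passed in CD, which is 68.8% and 14.6%, and 31 and 6 in WD, which is 64.6% and 12.5%. Of the abundant loci 45.1% and 24% passed in CD and 52.6% and 23.2% in WD. Of all loci it was 32.9% and 36.6% in CD and 31.4% and 38.5% in WD. Their median log2 heavy to light ratio was 1.09 in CD and 1.22 in WD, beside 0.97 and 1.04 for the 10 genes.

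In the light fraction Apoc3, an inhibitor of lipoprotein lipase, had the lowest WD to CD ratio at 0.351, followed by the fibrinogen chain gene Fgg at 0.485. The highest ratios there were those of Apoa5, a regulator of plasma triglyceride, at 2.64, and of Itih3, at 3.14, which encodes a heavy chain that binds the bikunin part of the Ambp product. Sepp1, which encodes the selenium carrier selenoprotein P, went against the list with heavy to light ratios of 0.109 in CD and 0.122 in WD. None of the 10 carrier genes had a heavy to light ratio that low, the lowest being 1.11.

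The loci whose profile over the 6 libraries was most like the mean profile of the 10 genes were Cyp2a3, F10, Atp5a1, Got2 and Acsm1, in that order, among 583 abundant loci with a unique symbol. Likeness was the root mean square difference of log2 levels after each profile was centred on its own mean, and it was 0.04 for Cyp2a3 and F10 and 0.10 for Acsm1. F10, which encodes clotting factor X, was at 111 and 118 FPKM in total RNA, 71.3 and 69.1 FPKM in the light and 138 and 146 FPKM in the heavy fractions of CD and WD. Its level was thus lowest in the light and highest in the heavy fraction in both diets. Among the 10 genes Serpina1 was nearest to their mean, at 0.08. The others lay further from it than all the loci named above, from 0.26 for Ambp to 0.37 for Alb. These loci thus resemble an average that most of the 10 genes did not follow closely.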

How the data were processed

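Per the deposited table and the submitters' processing notes, the authors called reads with bcl2fastq, aligned them to Rnor_6.0 with TopHat and computed FPKM per locus, with lower and upper bounds, with Cufflinks and Cuffnorm. The annotation is not given in the sources used here. The methods also describe a separate alignment route for ribosome-associated reads, and whether it was used for the fractions could not be settled. RNA of 3 rats was pooled, and libraries were made from the pool with RiboErase removal of ribosomal RNA.

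The deposited FPKM values were used without further normalization. Log2 differences were taken after adding 0.1 FPKM, and loci were compared where a symbol was given and FPKM averaged 1 or more. Fragment numbers up to 20000 were inferred as the whole numbers that explain a gene's values in the 6 libraries, given the relative value of 1 fragment per library, and were kept where at most 0.01 matches would arise by chance. These numbers are estimates. Counting intervals are at 95%. The inference and the comparison were tested on simulated data. No count model and no test was run, since each group had 1 library.

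The genes and lists were chosen with earlier results of these data known. All 10 genes are named, with the 5 loci most like their mean profile and, of the other secreted proteins with a mean of at least 10 FPKM, the 2 highest and 2 lowest per comparison at most, some of which are not reported here. Markers of hepatocytes, blood cells, Kupffer cells and macrophages (summed 59.3 to 140 FPKM), sinusoidal endothelium (48.7 to 70.9 FPKM), stellate cells (46.3 to 78.1 FPKM), cholangiocytes (0 to 4.35 FPKM) and adipocytes (2.35 to 32.4 FPKM) were summed per library. Promoter windows came from a RefSeq table of GRCr8 and were not set against Rnor_6.0 coordinates. Alternatives covered the pseudocount, the filter on low values, the scaling, repeated symbols, the measure of density, each gene left out and, added after seeing the data, the limits set on CD over WD. Scripts ran in Python 3.11.15 with numpy 2.4.6, scipy 1.17.1 and pandas 2.3.3, and plots were drawn with matplotlib 3.10.9.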

Additional observations from a re-analysis of the deposited data

Results flagged for a closer look

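For 2 genes the WD to CD ratio passed 1.5 in the light fraction and lay below 1 in another kind of RNA. Ahsg had a ratio of 2.00 in the light fraction, 0.972 in total RNA and 0.994 in the heavy fraction. Ambp had a ratio of 1.73 in the light fraction, 0.975 (0.903 to 1.05) in total RNA and 1.23 (1.12 to 1.35) in the heavy fraction. Both genes were thus higher in the WD light fraction. The ratios below 1 were those of Ahsg in total RNA and the heavy fraction and of Ambp in total RNA. They were close to 1, and the Ambp interval in total RNA contained 1. After rescaling to 1 common sum the log2 difference in total RNA was 0.055 for Ahsg and 0.059 for Ambp, so that the directions were no longer opposite there, and the light fraction value of Ambp, 0.44, no longer passed. With 1 library per group the difference was not tested.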

How the results depend on the processing

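No paired analysis was possible because each group had 1 library and no result came from a test. Of 610 values of single genes under alternative settings, 528 stayed close to the reported value, 80 moved and 2 reversed. The filters and the sum over repeated symbols could not change a gene's own values, and the pseudocounts hardly could at these levels. Much of the 528 was thus fixed in advance and is no sign of robustness. Only the scaling and the measure of density could in effect change a call of the 10 genes. With each library rescaled to the same sum over loci with a symbol, 0 genes passed the lower ratio in total RNA (median log2 difference 0.047), 1 passed the upper and 5 the lower ratio in the light fraction (median -0.42), the median of heavy over light in WD was 1.34, and 3 and 1 genes passed for the change of density (median 0.48). With each library rescaled to the same sum over loci other than the 10, a setting chosen after seeing the data, the corresponding values were 0 genes (median 0.044), 1 and 6 genes (median -0.46), a median of 1.60, and 4 and 1 genes (median 0.54), and the median of heavy over light in CD was 1.15. Under that setting 16.8% and 45.9% of all loci passed in the light fraction and 39.8% and 26.0% for the change of density. With the limits set on CD over WD, also chosen after seeing the data, 0 genes were called lower in WD total RNA, and 2 genes were called higher and 1 lower for the change of density. Here the rescaling itself moves every gene of a library by 1 factor. No rescaling used the sum over all loci. Between the light fractions that sum was higher in CD, whereas the sum over loci with a symbol was higher in WD. With density as heavy over total RNA, 0 genes passed the upper and 0 the lower ratio, and the log2 change of Ahsg (0.033) and of Ambp (0.34) reversed; the cause was not tested. Leaving out each gene in turn moved the median of heavy over light in CD between 0.82 and 1.11. The Hrg ratio of heavy over light in CD fell below the upper ratio, to 1.48, on rescaling, and the Ttr change of density reached 1.83. The share of the 10 genes was also taken over loci with a symbol that averaged 1 FPKM or more outside the mitochondrial chromosome. For CD and WD it was 16.0% and 15.4% in total RNA, 9.50% and 6.49% in the light and 20.7% and 21.2% in the heavy fractions. A rank by the lower bound of Cufflinks gave no order, since that bound was 0 in 50 of 60 values. Inferred depth was lowest in the CD heavy library, and the fewest fragments, 213, stood behind Serpina6 in the CD light fraction.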

Other observations

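Among the other secreted plasma proteins with a mean of at least 10 FPKM, the lowest WD to CD ratios in total RNA were those of Apoa1, the main protein of high density lipoprotein, at 0.726 and of the acute phase gene Orm1 at 0.827. Serpind1, which encodes heparin cofactor II, had the highest ratio at 1.33. In the heavy fraction the lowest were Orm1 at 0.649 and Sepp1 at 0.666, and the highest were Itih4 at 1.31 and the fibrinogen chain gene Fgb at 1.42. The change of ribosome density was 0.349 for Apoa1, 2.24 for Fgg and 2.97 for Apoc3. These values, like those of the 10 genes, come from 1 library per group.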
